A study of Mus musculus with 14 samples.

Results

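Expression of mouse miRNAs in the corpus callosum was compared between mice given regular diet for 2 days after 4 weeks of cuprizone (2dr, the acute remyelination group, 4 arrays) and control mice kept on normal diet (4 arrays), which make 8 of the 14 arrays of the series. The groups were taken from the titles of the arrays, and all 566 mouse miRNAs on the array were considered. Cuprizone (CPZ) is a copper chelator that is toxic to oligodendrocytes when eaten, so that the corpus callosum loses myelin, and stopping it is followed by remyelination. The chow held 0.2 to 0.4% CPZ, the mice were male per the labels and 7 to 8 weeks old at the start per the methods, and the labels name no strain, no genetic change and no treatment of the control mice. The other 6 arrays, of 4 weeks of CPZ (4wd) and of 2 weeks of regular diet after it (2wr), entered through the shared estimate of the spread. They also counted in choosing the miRNAs to scale by and to test, in the floor set under low signals, and in quantile normalization. Each array carries its own replicate number, and the labels do not say whether an array holds 1 mouse or a pool.

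miRNAs are short RNAs that guide the Argonaute proteins to messenger RNAs, lowering their stability and translation, and the seed near the 5′ end of the miRNA does most of the pairing. miR-219 and miR-338 are known to promote the maturation of oligodendrocytes, miR-146a and miR-155 are induced by NF-κB and related signals in activated myeloid and glial cells, and miR-142 is restricted to blood-derived and other hematopoietic cells, microglia included. The corpus callosum is a white matter tract, so its RNA comes from oligodendrocytes, astrocytes, microglia and vessels, with axons and adjoining grey matter as further sources.

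The sequences of the miRNAs on which the comparison turns are given first, 5′ to 3′, with the seed (bases 2 to 8) in capitals, from the RefSeq annotation of GRCm38.p6. Array names follow an older nomenclature and were assigned to arms by naming convention, and all 26 sought were found. The build of the array design (mm9) is not that of this annotation, so no coordinates are given. The first set holds the 4 miRNAs with every 2dr array above every control array, and miR-142-3p and miR-21, which are known from myeloid cells and gliosis, with seed relatives for comparison.
miR-155: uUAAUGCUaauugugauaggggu
miR-146a: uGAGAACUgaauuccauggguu
miR-146b: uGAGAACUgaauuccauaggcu
miR-142-3p: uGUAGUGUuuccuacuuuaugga
miR-34a: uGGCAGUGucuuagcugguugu
miR-34b-5p: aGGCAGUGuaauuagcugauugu
miR-21: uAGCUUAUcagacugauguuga
miR-425: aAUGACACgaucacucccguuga
miR-146a and miR-146b differ at 2 of 22 bases, both outside the seed, and come from chromosomes 11 and 19. miR-34a and miR-34b-5p share the seed but differ at 11 of the 22 bases compared.

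The second set holds members of the cluster that runs from miR-17 to miR-92a and of its paralogs, shown because they fall into seed groups that lie in different clusters.
miR-20a: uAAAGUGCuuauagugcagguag
miR-20b: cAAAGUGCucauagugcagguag
miR-106b: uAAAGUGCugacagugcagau
miR-93: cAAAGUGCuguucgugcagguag
miR-92a: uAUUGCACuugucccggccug
miR-25: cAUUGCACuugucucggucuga
miR-20a and miR-20b differ at 2 of 23 bases, so that probes could take up both, and they were not read as independent measurements.

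The third set holds both arms of miR-338, the miRNAs that the study names, and miR-381, miR-411* and miR-330*, which were lower on every 2dr array and detected on all 8 arrays, with miR-132 and miR-212 and further seed relatives. The dimmer miRNAs near the floor are not shown.
miR-338-5p: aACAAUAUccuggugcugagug
miR-338-3p: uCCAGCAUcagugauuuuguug
miR-193: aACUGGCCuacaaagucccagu
miR-193b: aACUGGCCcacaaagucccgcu
miR-181a: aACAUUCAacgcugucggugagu
miR-181b: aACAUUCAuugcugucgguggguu
miR-181d: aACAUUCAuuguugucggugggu
miR-381: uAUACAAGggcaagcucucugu
miR-411*: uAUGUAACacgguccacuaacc
miR-330*: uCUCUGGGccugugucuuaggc
miR-132: uAACAGUCuacagccauggucg
miR-212: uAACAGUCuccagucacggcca
miR-181b and miR-181d differ at 1 of the 23 bases compared, the closest pair shown. miR-338-5p and miR-338-3p are cut from the same precursor and have different seeds. In the precursor below, of 98 bases, the capitals mark both arms.
Mir338 precursor: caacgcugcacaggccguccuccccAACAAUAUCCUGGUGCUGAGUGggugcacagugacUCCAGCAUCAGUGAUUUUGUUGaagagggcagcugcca

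On single-colour Agilent arrays such as these, every array reads 1 labeled RNA sample. The image software reports a total signal for each miRNA after background subtraction, together with a detection call. Control arrays detected 236 to 287 miRNAs, and 2dr arrays 181 to 253. The summed signal was 85797 to 174172 on control arrays and 46845 to 139793 on 2dr arrays, with 2dr replicate 2 lowest on both counts. Signals were scaled by the 75th percentile of the array, computed from the 170 miRNAs that every one of the 14 arrays detected, and then taken to log2 with a floor at -9.15. This normalized signal is the level given below. The arrays lay on 2 slides, with control arrays 2 and 2 and 2dr arrays 3 and 1 on slides 1 and 2, and 69 of the 225 miRNAs tested (30.7%) differed between the slides in limma. The main differences are therefore also given with slide as a block or within each slide, where slide 2 holds only 2dr replicate 3.

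Detection itself differed between the groups, and mostly through that dim array. Of 217 miRNAs detected on all 4 control arrays, 174 were detected on all 4 2dr arrays and 33 on 3 of them, and in all 33 the array that missed them was 2dr replicate 2. The remaining 10 were detected on 0 to 2 of the 2dr arrays. In the other direction, 2 of the 176 miRNAs detected on all 4 2dr arrays were not detected on every control array. These were miR-155, detected on no control array, and miR-142-3p, detected on 2. miR-330 was the 1 miRNA detected on all control arrays and on no 2dr array, but its signal was near the floor on the control arrays too, so no fold is given. On none of the 8 arrays was a signal detected for 254 miRNAs.

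Across the miRNAs, 2 of the 225 tested (0.889%) passed the threshold of an adjusted p under 0.05 and at least 2-fold in limma, miR-155 and miR-146a, and both rose. For miR-155, which no control array detected, the pass rests on a control level set near the floor. None passed as lower. Without adjustment, 27 of 225 (12%) had a p under 0.05, of which 9 were higher (4%) and 18 lower (8%) in 2dr. The median log2 fold change of all tested miRNAs was -0.25, with the middle 50% between -0.54 and 0.06, and 161 of 225 (71.6%) were below 0. That shift is set by the scaling. It was 0.03 with the percentile taken over all mouse miRNAs, -0.05 after quantile normalization, 0.01 in the authors' processed values, 0.18 after normexp background correction and -0.66 with no scaling, so levels relative to the median of all tested miRNAs are given beside values near 0. Without 2dr replicate 2 the median was -0.16.

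The plain count of miRNAs whose 4 2dr arrays all lay on one side of the 4 control arrays came to 13 of 225 (5.78%), 4 higher (1.78%) and 9 lower (4%). The 4 higher were miR-155, miR-146a, miR-34a and miR-425. The 9 lower were miR-338-5p, miR-700, miR-532-3p, miR-760, miR-674, miR-411*, miR-381, miR-330* and miR-337-5p. The split depended on the scaling, with 9 higher and 3 lower when the percentile was taken over all mouse miRNAs, 11 and 1 after quantile normalization, 9 and 2 in the authors' processed values, 2 and 3 with no scaling, and 2 and 1 after normexp. The gap between the groups was 1.56 for miR-146a, 1.81 for miR-155, 0.60 for miR-700 and 0.22 or less for the others. For each of these 13, the exact two-sided permutation p was 0.0286, the smallest that 4 against 4 arrays can give. That p follows from the complete separation by which the 13 were picked, so it adds nothing to the count.

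**Figure D1:**
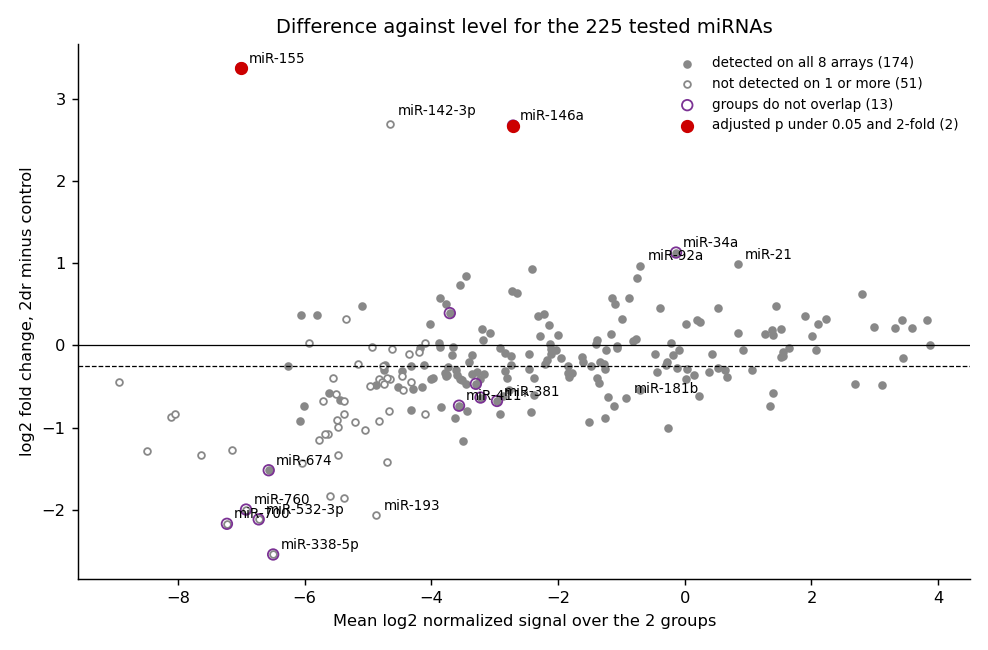
Difference between 2dr and control (log2 fold change, vertical axis) against mean normalized signal (log2, horizontal axis) for the 225 tested miRNAs. Filled points were detected on all 8 arrays (174) and open points on fewer (51), the dashed line is the median of -0.25, and miR-155 and miR-146a are the 2 red points, while the 13 circled miRNAs have groups that do not overlap.

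miR-146a, a repressor of the adaptors IRAK1 and TRAF6 in the NF-κB pathway, was detected on all 8 arrays. Its normalized signal on the control arrays was -3.69, -4.15, -4.06 and -4.28 (replicates 1 to 4), and on the 2dr arrays -1.47, 0.04, -1.94 and -2.13. The lowest 2dr array lay above the highest control array by more than the whole range of the control arrays. The level rose by 2.67 on the log2 scale (SE 0.49, 6.37-fold with a 95% interval of 3.05 to 13.3, adjusted p = 0.0136 in limma). The rise was 2.59 with slide as a block (adjusted p = 0.0292 in limma), 2.73 within slide 1 and 2.23 within slide 2. The highest value came from the dim array, and without it the rise was 2.20 (adjusted p = 0.0219 in limma). The call was lost without control replicate 2 (adjusted p = 0.0544 in limma) or control replicate 4 (0.0596), with no scaling (2.27, 0.0813), with no filter (0.112) and after normexp (1.36, 0.383). The methods' test gave 0.328, the larger of its Benjamini-Hochberg p over all 4 groups and its Tukey p for 2dr against control. The difference was above 0 under each of these. The probes of miR-146a gave 2.64 and 2.84.

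miR-146b, its close relative, had overlapping groups. It measured -4.02, -4.09, -4.06 and -3.92 on the control arrays and -3.44, -3.36, -3.27 and -4.01 on the 2dr arrays, so that 2dr replicate 4 lay among the controls. The difference was 0.50 (SE 0.29, adjusted p = 0.438 in limma). Its probes disagreed, with -0.66 for one and 0.64 for the other. The difference between the changes of the 2 relatives was not tested.

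miR-155, a regulator of inflammatory activation in macrophages and microglia, was not detected on any control array and was detected on all 4 2dr arrays, through which it entered the test. On the control arrays the total signal was 0.285 to 3.72 units of intensity, while on the 2dr arrays it was 7.59 to 15.7. As normalized signal it was -5.07, -4.79, -5.38 and -6.02 on the 2dr arrays, against -9.15, -8.59, -9.15 and -7.83 on the control arrays. The groups did not overlap, and 2 control values were at the floor. The group means were -8.68 ± 0.63 and -5.31 ± 0.53 (SD, n = 4) and limma gave an adjusted p of 0.00222. The control arrays hold no measured level, so every fitted difference given for miR-155 is taken from a control level at or near the floor and is no measured fold. Against the lowest signal well above background on each control array, the scaled 2dr mean of miR-155 was 1.16-fold, below the threshold of 2-fold. On the 2dr arrays themselves that limit was 10.4 to 20.1 units of intensity, a range that the miR-155 signals there overlapped. The 1.16-fold is therefore no lower bound on the difference.

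The call for miR-155 rested on where the floor was set. With the higher floor (-6.28) the difference was 0.97 (adjusted p = 0.296 in limma), and after normexp it was 0.55 (adjusted p = 0.944 in limma). One of its 2 probes, near the floor in both groups, differed by 0.66, and the other by 3.20. The differences within slide 1 (3.58) and slide 2 (3.11) were both taken from control levels at or near the floor. So was the fit with slide as a block (adjusted p = 9.94e-04 in limma). With slide as a block and the higher floor the difference was 1.05 (adjusted p = 0.217 in limma).

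**Figure D2:**
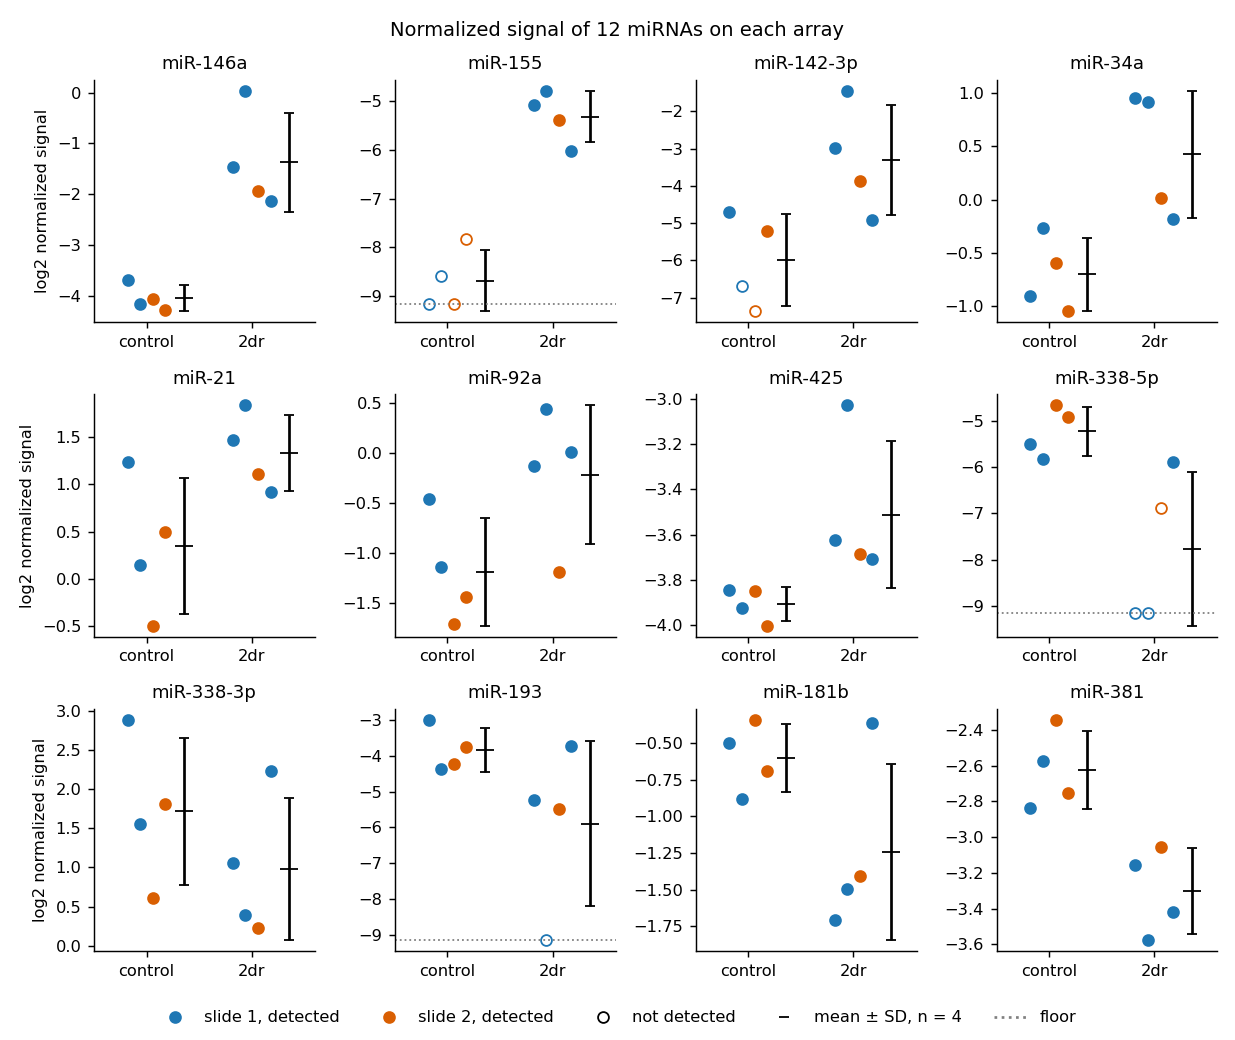
Normalized signal (log2, vertical axes differ) of 12 miRNAs on each of the 4 control and 4 2dr arrays, blue for slide 1 and orange for slide 2, with open points for arrays on which the miRNA was not detected, bars for mean ± SD (n = 4) and a dotted line at the floor. miR-146a and miR-155 separate the groups with a wide gap, miR-142-3p, miR-21 and miR-92a overlap, and miR-338-5p lies at the floor on 2 of the 2dr arrays.

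The inflammation-induced list of 5 miRNAs holds miR-146a and miR-155, the only 2 of the 225 tested (0.889%) that passed. It was chosen with earlier results of these data known, so neither this count nor the median of the list is independent of them. miR-146b is given above, miR-132 had a difference of -0.30 (SE 0.26), and miR-147 was detected on none of the 8 arrays. The median of the 4 tested was 1.59, against -0.25 for all tested miRNAs. With the higher floor, which lowers miR-155, it was 0.73 against -0.24, and after normexp 0.48 against 0.18.

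miR-142-3p, the marker of hematopoietic cells, had a difference of the size of that of miR-146a but did not pass. It measured -4.71, -6.68, -7.36 and -5.22 on the control arrays, where replicates 2 and 3 were not detected, and -2.99, -1.45, -3.87 and -4.91 on the 2dr arrays. One 2dr array, replicate 4, lay just below the highest control array. The difference was 2.69 (SE 0.74, adjusted p = 0.201 in limma, exact two-sided permutation p = 0.0571). It was 2.58 within slide 1 and 2.42 within slide 2, 2.07 without 2dr replicate 2, 0.81 after normexp, and its 2 probes gave 2.44 and 2.87.

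The other markers of leukocytes and microglia did not pass either, and whether they differed from miR-142-3p was not tested. miR-223, known from granulocytes and macrophages, had a difference of 0.03 (SE 0.55), or 0.99 after quantile normalization, with its 2 probes at -0.48 and 0.30. miR-150, a miRNA of mature lymphocytes, had -1.16 (SE 0.79), and miR-342-3p 0.31 (SE 0.22). miR-142-5p, the other arm of the miR-142 precursor, was detected on none of the 8 arrays. Of the 5 listed, 4 were tested and none passed, 3 were above 0, and the median was 0.17. The signal of the list summed over its members, relative to the scaling percentile, was 1.02 to 1.42 on control arrays and 1.097 to 2.42 on 2dr arrays. In tissue RNA of this kind, more cells of a type and more RNA in each cell cannot be told apart, and the same holds for fewer cells and less RNA. The part of myeloid cells in the differences of miR-146a and miR-155 was not tested.

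miR-34a, a target of p53 that represses cell cycle and Notch pathway genes, was higher on every 2dr array than on every control array. It measured -0.90, -0.27, -0.60 and -1.04 on the control arrays and 0.96, 0.92, 0.01 and -0.18 on the 2dr arrays. Replicates 1 and 2 of 2dr were the high ones, while the gap between the groups was 0.09. The difference was 1.13 (SE 0.32, 2.19-fold, 95% interval 1.36 to 3.52, adjusted p = 0.201 in limma). It was 1.05 with slide as a block, 1.15 within slide 1 and 0.83 within slide 2, and 0.97 without 2dr replicate 2. miR-34b-5p and miR-34c, made from another locus and abundant in ciliated cells, had differences of 0.57 (SE 0.55) and 0.51 (SE 0.56). All 3 members of the family were above 0 and above the median of all tested, and the median of the family stayed above 0 under every scaling, from 0.17 with no scaling to 0.86 with the percentile over all miRNAs.

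miR-425 was the fourth miRNA with all 2dr arrays above the controls, by a much smaller margin. It measured -3.85 to -4.00 on the control arrays and -3.62, -3.03, -3.69 and -3.71 on the 2dr arrays, of which replicate 2 stood apart. The difference was 0.39 (SE 0.21, adjusted p = 0.422 in limma) and 0.23 without that array. With no scaling it was -0.01, so its direction is that of the scaled values.

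miR-21, which is induced in reactive astrocytes and other activated cells and represses genes such as Pdcd4, was detected at high level in both groups. It measured 1.23, 0.15, -0.50 and 0.50 on the control arrays and 1.47, 1.84, 1.11 and 0.92 on the 2dr arrays. Control replicate 1 lay above 2 of the 2dr arrays. The difference was 0.99 (SE 0.36, 1.99-fold, 95% interval 1.16 to 3.41, adjusted p = 0.368 in limma). It was 0.92 with slide as a block, 0.72 within slide 1 and 1.11 within slide 2. Its partners on the gliosis and proliferation list, miR-221 and miR-222, repressors of the cell cycle inhibitor p27, had differences of -0.11 (SE 0.20) and -0.92 (SE 0.59). None of the 3 passed.

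Members of the cluster that runs from miR-17 to miR-92a and of its paralogs, which promote proliferation of progenitor cells, were above 0 in all 7 of those tested, against 64 of 225 (28.4%) of all tested. The other 5 of the 12 on the array, miR-17 among them, were seldom or never detected. None of the 7 passed the adjusted threshold, and the groups overlapped for each. An unadjusted p under 0.05 was found for 3, miR-92a and the near copies miR-20a and miR-20b, where 9 of the 225 tested (4%) were higher at that p. The 7 had differences between 0.25 and 0.97, with a median of 0.64. That median stayed above 0 under every scaling, from 0.24 with no scaling to 0.92 with the percentile over all miRNAs.

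miR-92a measured -0.46, -1.14, -1.71 and -1.44 on the control arrays and -0.13, 0.44, -1.19 and 0.01 on the 2dr arrays. The 3 2dr arrays of slide 1 were above all controls, and that of slide 2 was not. The difference was 0.97 (SE 0.37, adjusted p = 0.368 in limma), with 0.78 with slide as a block, 0.91 within slide 1 and 0.38 within slide 2. miR-20a differed by 0.93 (SE 0.35) and miR-20b, its near copy, by 0.73 (SE 0.31). The members of the miR-106b-25 cluster were the lower 3, with miR-93 at 0.39 (SE 0.24), miR-25 at 0.36 (SE 0.23) and miR-106b at 0.25 (SE 0.29). The 4 miRNAs with the seed AAAGUGC thus spanned 0.25 to 0.93 and the 2 with AUUGCAC 0.36 to 0.97.

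**Figure D3:**
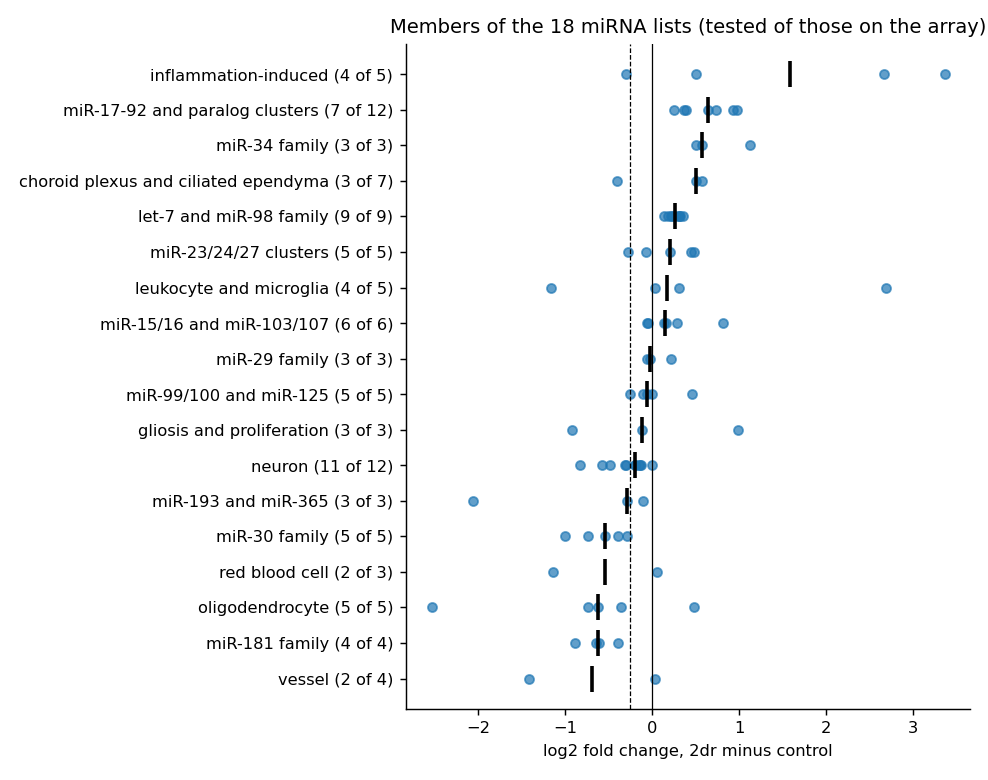
log2 fold change (2dr minus control, horizontal axis) of the tested members of 18 miRNA lists, 1 point for each miRNA and a black tick for the median of the list, with the number tested of those on the array in brackets and the dashed line at the median of all tested miRNAs (-0.25). The inflammation-induced list, which holds miR-155, has a median of 1.59 and the list of miR-17 and its paralog clusters of 0.64, while the miR-181 list lies at -0.63 and the oligodendrocyte list at -0.62.

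The miRNAs of oligodendrocytes, the myelin-forming cells, were present in both groups. miR-219 and miR-338-3p were detected on all 8 arrays, at mean control levels of 0.33 and 1.72. miR-219 had a difference of -0.35 (SE 0.57, adjusted p = 0.742 in limma). miR-338-3p measured 2.89, 1.56, 0.61 and 1.81 on the control arrays and 1.05, 0.40, 0.23 and 2.23 on the 2dr arrays. Replicates 2 and 3 of 2dr lay below every control array, and replicates 1 and 4 lay in the control range, which was wider than that of the 2dr arrays. The difference was -0.74 (SE 0.49, adjusted p = 0.454 in limma), with -0.86 with slide as a block, -0.99 within slide 1 and -0.98 within slide 2. It depended on single arrays, with -0.35 without control replicate 1, -0.49 without 2dr replicate 3, -1.11 without control replicate 3 and -1.16 without 2dr replicate 4.

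miR-338-5p, the other arm of that precursor, had the lowest fitted fold change of the 225, a place that the floor decides. It measured -5.51, -5.82, -4.67 and -4.91 on the control arrays and -9.15, -9.15, -6.88 and -5.88 on the 2dr arrays, where it was detected on replicate 4 only. All 2dr values lay below all control values, but the margin at replicate 4 was 0.06 and replicates 1 and 2 were at the floor. The difference was -2.54 (SE 0.97, adjusted p = 0.368 in limma), -2.05 with slide as a block, -2.40 within slide 1 and -2.08 within slide 2. With the higher floor it was -0.95, less far below 0 than miR-193 (-1.34), and after normexp 0.20. Of its 4 probes, 2 were at the floor in both groups and the other 2 gave -1.94 and -2.03. For both arms the array with the highest 2dr value was replicate 4.

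Over the 5 miRNAs of the oligodendrocyte list, 4 were below 0 and 4 below the median of all tested, and none passed. miR-138 differed by -0.62 (SE 0.41), and miR-23a, which represses lamin B1 in myelinating cells, by 0.48 (SE 0.24). The median was -0.62, and the summed signal of the list was 5.05 to 14.1 on control arrays and 4.89 to 9.91 on 2dr arrays, so the ranges overlapped.

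miR-700, miR-532-3p, miR-760 and miR-674 were the other dim miRNAs with every 2dr array below every control array. miR-700 measured -6.83, -6.31, -5.57 and -5.87 on the control arrays and -9.15, -9.15, -7.43 and -7.50 on the 2dr arrays, and was detected on 1 of the latter. miR-760 was detected on 2 of the 2dr arrays, miR-532-3p on 3 and miR-674 on all 4. The differences were -2.17 (SE 0.90), -2.11 (SE 0.98), -1.99 (SE 0.75) and -1.52 (SE 0.74) for miR-700, miR-532-3p, miR-760 and miR-674, with adjusted p from 0.368 to 0.417 in limma. With the higher floor these shrank to -0.28, -0.59, -0.43 and -0.49, and after normexp all 4 were between 0.26 and 0.29. Without 2dr replicate 2 that of miR-674 was -0.91. Each also differed between the slides by 1.36 to 2.04 (slide 2 minus slide 1), and slide 2 held 1 of the 4 2dr arrays, so with slide as a block they were -1.66, -1.61, -1.64 and -1.18.

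The signed difference went with brightness. Among the 75 dimmest tested miRNAs 65 were below 0, with a median of -0.51, among the middle 75 there were 55 (median -0.24), and among the brightest 75 there were 41 (median -0.05). When every mouse miRNA counted towards the percentile, the 3 medians were -0.24, 0.04 and 0.23. The part of the low signal of 2dr replicate 2 in this pattern was not tested.

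Better measured were 3 of the miRNAs lower on every 2dr array, miR-381, miR-411* and miR-337-5p, which all come from the imprinted Dlk1-Dio3 region of chromosome 12, a maternally expressed cluster that is active in brain. miR-381 measured -2.84, -2.57, -2.34 and -2.75 on the control arrays and -3.16, -3.58, -3.05 and -3.42 on the 2dr arrays. The difference was -0.67 (SE 0.21, 1.59-fold lower, adjusted p = 0.201 in limma), with -0.68 within slide 1 and -0.50 within slide 2. miR-411* measured -3.22, -3.15, -3.41 and -3.01 on the control arrays and -3.80, -4.39, -3.49 and -4.04 on the 2dr arrays. The gap between its groups was 0.08, and the difference was -0.73 (SE 0.22, adjusted p = 0.201 in limma). miR-337-5p had -0.47 (SE 0.31). All 3 were detected on all 8 arrays and no value was at the floor.

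Of the 67 miRNAs on the array that lie between Dlk1 and Dio3, 38 were tested, and 36 of these were below 0, against 71.6% of all tested. Relative to the median of all tested, 26 of 38 were below, against 49.8% of all. None passed. An unadjusted p under 0.05 was found for 6 of the 38, all of them lower, where 18 of the 225 tested (8%) were lower at that p. The 6 were miR-381, miR-411*, miR-379, miR-370, miR-431 and miR-431*. The median was -0.38. With the percentile over all miRNAs 26 of 38 were below 0, after quantile normalization 24, with no scaling 38 and after normexp background correction 9. Below the median of all tested miRNAs under these settings were 26, 23, 26 and 21, in the same order. Members share a transcript and are not independent measurements.

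miR-330*, of similar brightness to miR-381 but from chromosome 7, measured -3.11, -2.76, -2.57 and -3.19 on the control arrays and -3.66, -3.76, -3.54 and -3.19 on the 2dr arrays. 2dr replicate 4 and the lowest control array both read -3.19. The difference was -0.63 (SE 0.23, adjusted p = 0.368 in limma), the same within slide 1 (-0.61) and slide 2 (-0.66). After normexp miR-381, miR-411* and miR-330* were between 0.02 and 0.03, below the median of all tested miRNAs (0.18).

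The other miRNAs that the study names are miR-193 and miR-181b. miR-193 measured -3.001, -4.37, -4.22 and -3.77 on the control arrays and -5.25, -9.15, -5.48 and -3.73 on the 2dr arrays. One array, 2dr replicate 2, was at the floor, and 2dr replicate 4 lay among the controls. The difference was -2.06 (SE 0.90, adjusted p = 0.368 in limma), but -0.98 without 2dr replicate 2, and -1.94 with slide as a block. miR-193b, with the same seed, had -0.11 (SE 0.38), and miR-365, processed from the same locus as a miR-193, had -0.29 (SE 0.26).

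miR-181b measured -0.50, -0.88, -0.34 and -0.69 on the control arrays and -1.71, -1.496, -1.41 and -0.36 on the 2dr arrays. The first 3 of the 2dr arrays lay below every control array, and replicate 4 lay above 3 of the 4. The difference was -0.64 (SE 0.28, 1.56-fold lower, 95% interval of the 2dr to control ratio 0.42 to 0.98, adjusted p = 0.368 in limma), with -0.60 with slide as a block, -0.50 within slide 1 and -0.89 within slide 2. The other members of the miR-181 family, which is known from lymphocytes and astrocytes, had -0.61 (SE 0.34) for miR-181a, -0.40 (SE 0.25) for miR-181c and -0.88 (SE 0.39) for miR-181d. All 4 were below 0 and below the median of all tested, and the family median was -0.63, below 0 under every scaling (-0.19 after normexp to -1.03 with no scaling).

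The 2dr arrays were not equally far from control. Over the 225 tested miRNAs, the 2dr value nearest to the control mean was that of replicate 3, the 2dr array on slide 2, for 47.6%, of replicate 1 for 23.6%, of replicate 4 for 19.1% and of replicate 2, the dim array, for 9.78%. Among the 27 with an unadjusted p under 0.05, replicate 3 was the nearest for 16, replicate 4 for 10 and replicate 1 for 1.

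miR-212, which is induced by neuronal activity together with miR-132, measured -3.09, -2.58, -2.03 and -2.30 on the control arrays and -3.07, -3.65, -3.03 and -3.56 on the 2dr arrays. Control replicate 1 lay below 2 of the 2dr arrays. The difference was -0.83 (SE 0.25, adjusted p = 0.201 in limma). miR-124 and miR-128, the neuronal miRNAs among the brightest on every array, had -0.48 (SE 0.29) and -0.15 (SE 0.43). All 11 tested miRNAs of the neuron list were below 0, none passed, and 6 of the 11 were above the median of all tested. Their median was -0.20 and turned to 0.08 with the percentile over all miRNAs. The summed signal of the list was 34.6 to 38.2 on control arrays and 24.96 to 37.2 on 2dr arrays.

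The let-7 family, which marks differentiated cells, lay on the other side of 0, within the spread. All 9 members were above 0, from 0.14 to 0.36, and none passed. Their median was 0.26, and 0.52 relative to the median of all tested, while with no scaling it was -0.14. let-7a, with miR-125b-5p and miR-128 among the 3 brightest miRNAs in control, measured 3.27 to 4.09 on control arrays and 3.58 to 4.19 on 2dr arrays. miR-125b-5p measured 3.72 to 4.10 on control and 3.75 to 4.09 on 2dr arrays, a difference of 0.00 with a 95% interval of -0.38 to 0.38. Its 2 probes disagreed in sign, with -0.61 and 0.11.

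The miR-30 family, 5 of 5 members below 0 with a median of -0.54 that stayed below 0 under every scaling, included miR-30c, which depended on the slide more than on the group. It measured -0.90 and -0.52 on the control arrays of slide 1 and 0.996 and 1.37 on those of slide 2, and -1.40, -1.62 and -1.37 on the 2dr arrays of slide 1 and 1.33 on that of slide 2. Its difference was -1.003 (SE 0.86) without the block and -0.42 (SE 0.21) with it. The list of miR-15, miR-16, miR-103 and relatives had a median of 0.14 with miR-15b at 0.82 (SE 0.41), the list of miR-23, miR-24 and miR-27 0.20, the miR-29 list -0.03 and the list of miR-99, miR-125 and relatives -0.06. The sign of each of these medians changed with no scaling or with the percentile over all miRNAs, and no member of any of the lists passed. The largest differences in the last 3 were 0.48 for miR-23a, 0.22 for miR-29a and 0.45 for miR-99a.

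Markers of vessels, red blood cells and choroid plexus were measured as signs of other tissue. miR-126-3p, of endothelium, had a difference of 0.03 (SE 0.24) and miR-143, of smooth muscle, -1.42 (SE 0.83), or -0.61 without 2dr replicate 2, on which it was not detected. miR-451, of red blood cells, had 0.06 (SE 0.31) and miR-486 -1.14 (SE 0.64), with miR-144 detected on none of the 8 arrays. Of the 7 miRNAs of choroid plexus and ciliated ependyma, 3 were tested, and miR-204 had -0.41 (SE 0.85). The other tested members, miR-34b-5p (0.57) and miR-34c (0.51), were above 0, and the median of the list was 0.51. The summed signal of that list was 1.596 to 4.70 on control arrays and 1.56 to 2.95 on 2dr arrays. No member of the 3 lists passed.

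The differences within the slides were then compared. Over the 225 miRNAs, 131 (58.2%) had the same sign on both slides, with a Spearman's rho of 0.18 and a Pearson's r of 0.51 across miRNAs, which share arrays and are not independent. Of the 27 with an unadjusted p under 0.05, a choice that used the same arrays, 26 had the same sign, the exception being miR-133b. In a fit with an interaction of slide and group over these 8 arrays, no miRNA had an adjusted p under 0.05 in limma and 2 (0.889%) had an unadjusted one, and with 1 2dr array on slide 2 that fit has little precision. With slide as a block the same 2 miRNAs passed, miR-155 and miR-146a, and 33 had an unadjusted p under 0.05 (14.7%), 10 higher (4.44%) and 23 lower (10.2%).

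**Figure D4:**
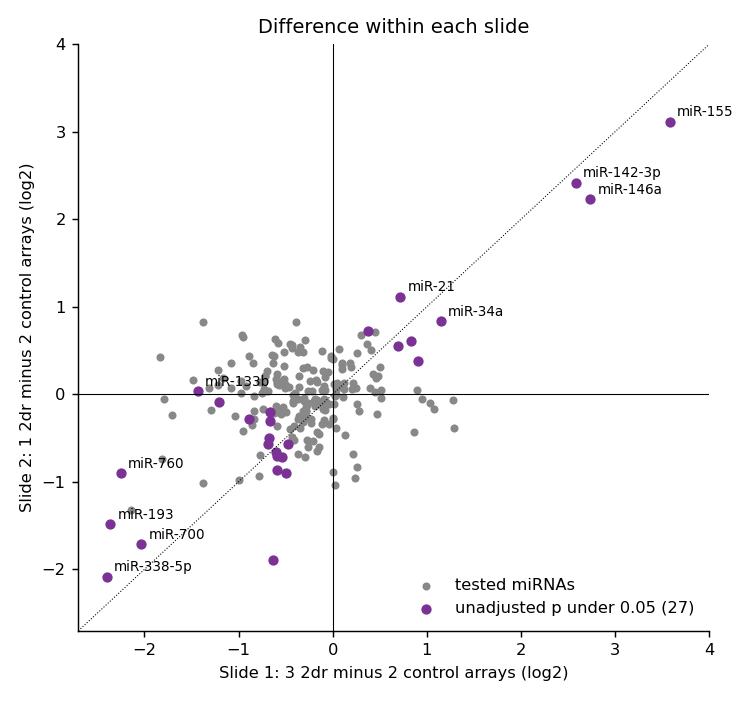
Difference between 2dr and control within slide 1 (3 against 2 arrays, horizontal axis, log2) and within slide 2 (1 against 2 arrays, vertical axis, log2) for the 225 tested miRNAs, with those of unadjusted p under 0.05 in purple and the dotted line where both are equal. miR-155, miR-142-3p and miR-146a lie near the line on both slides, at 2.23 or more, while most others form a cloud around 0.

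The settings of the processing moved the differences of single miRNAs to unequal degrees. miR-34a, miR-21 and miR-92a were above 0 and miR-181b below 0 in each of the ways plotted. After normexp all 9 miRNAs that were lower on every 2dr array were above 0, where the median of all tested miRNAs was 0.18. Of the 9, 4 stayed below that median. Among the 9 were miR-381, miR-411* and miR-330*, which were detected on all 8 arrays.

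**Figure D5:**
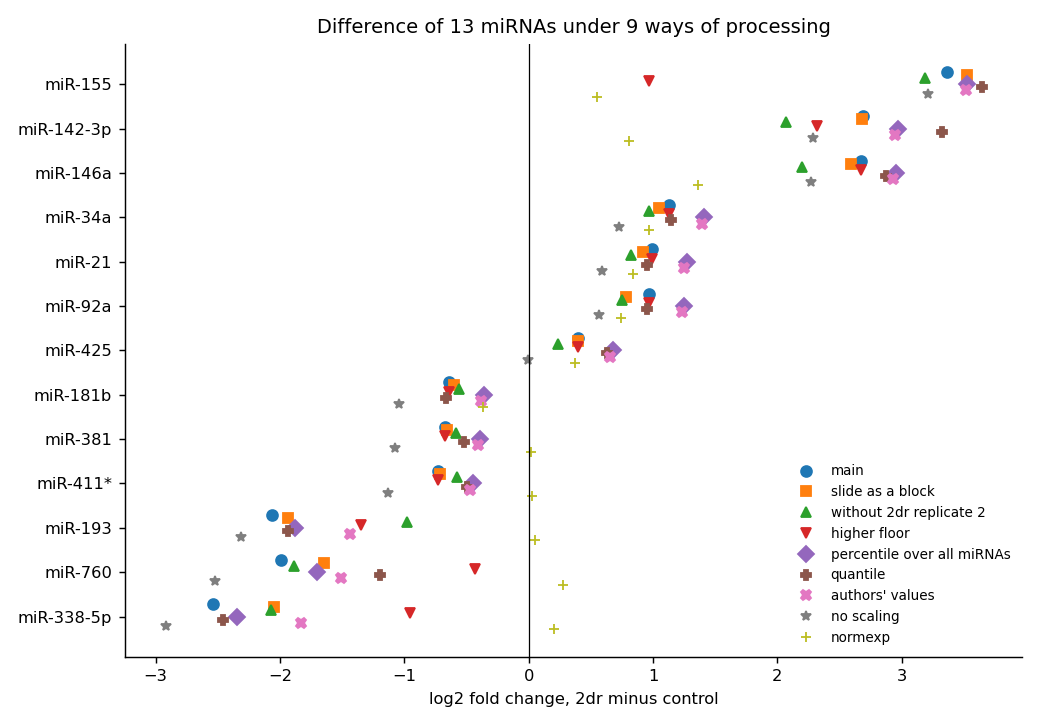
log2 fold change (2dr minus control, horizontal axis) of 13 miRNAs under 9 ways of processing, 1 symbol for each. miR-146a stays between 1.36 and 2.95, miR-155 drops to 0.97 with the higher floor and 0.55 after normexp, and miR-338-5p runs from -2.92 with no scaling to 0.20 after normexp.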

How the data were processed

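Each deposited scanner file gives linear signal intensity by spot and by miRNA. The authors' image software (Agilent Feature Extraction, 10.5.1.1 in the submitters' processing notes, while the methods name a later version) removed the background and totalled the probes. The authors' deposited table of log2 values, scaled to the 75th percentile, served as an alternative.

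Signals were scaled as described in the results. The floor was 0.00176 of the scaling percentile (-9.15 as log2), which is the median, over arrays, of the dimmest detected miRNA. The 10 miRNAs of viruses were left out. Testing was limited to 225 of 566 miRNAs, those detected throughout 1 or more of the 4 groups. All 14 arrays were fitted with limma 3.58.1 (R 4.3.3), and a call required 2-fold and a Benjamini-Hochberg p under 0.05. Exact permutation tests used scipy 1.17.1. On simulated data of 225 miRNAs with 40 changed, the fit recovered 88.5% of 4-fold and 33.8% of 2-fold changes, with 3.17% false among the calls (20 runs). The simulated errors were independent and normal, with no floor, no undetected values and no shared slide difference. Its rates need not hold for these arrays. Precision is limited by the number of arrays, and p-values measure the spread between these arrays.

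Named miRNAs are those called with or without the slide block, the 3 that the study names, the 8 highest and 8 lowest of those whose groups do not overlap, the member of each list with the largest difference, those detected on every array of one group and on none of the other, and the 3 brightest in control, 32 in all. Other miRNAs were named after their values were seen. The members and the 18 lists were chosen with earlier results of these data known. The Dlk1-Dio3 members were taken from the RefSeq annotation.

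Alternatives were the mean of the spots, normexp (offset 50, on the spots' median signal because the files lack the mean), other scalings, filters and floors, slide or replicate number as a block, limma's trend and robust options, the 8 arrays alone, the methods' test (1-way analysis over the 4 groups), the authors' values and each array left out in turn. Replicate numbers were not taken as pairs, since the labels state no pairing. The deviations of same-numbered control and 2dr arrays from their group means correlated at 0.61, 0.19, 0.55 and -0.13. Replicates 1 to 3 share a slide and replicate 4 does not. Slide was not adjusted for, so these correlations cannot decide on pairing. No pair of arrays was closer than a median difference of 0.22 (log2).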

Additional observations from a re-analysis of the deposited data

Results flagged for a closer look

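In 86 groups of 4 arrays (the named miRNAs in each group, with array totals), 3 held an array that stood apart from the other 3, where chance alone gives about 1 in 20. These were miR-425 on 2dr replicate 2 (-3.03, against -3.62 to -3.71 on the others), let-7i on 2dr replicate 3 (1.76, against 2.14 to 2.20) and miR-30c on 2dr replicate 3 (1.33, against -1.37 to -1.62). 2dr replicate 2 is the array with the lowest summed signal, and 2dr replicate 3 is the only 2dr array on slide 2. let-7i differed by -0.56 and miR-30c by 2.33 between the slides (slide 2 minus slide 1), and their part in these values was not tested.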

How the results depend on the processing

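Of the alternatives, 0 miRNAs were called after normexp, with no scaling, by the methods' test and with the slide block and higher floor. After normexp, with no scaling and with the slide block and higher floor, 4, 18 and 36 had an unadjusted p under 0.05. The 21 of the methods' test are not comparable, since its unadjusted p is over all 4 groups. 1 was called with the higher floor (miR-146a), no filter (miR-155) and only miRNAs detected on all arrays (miR-146a), and 1 or 2 as each array was left out, with miR-155 alone remaining without control replicate 2 or control replicate 4. miR-146a was 1.36 after normexp, 2.27 with no scaling (adjusted p = 0.0813), 2.67 with no filter (adjusted p = 0.112) and by the methods' test, and 2.59 with slide as a block and the higher floor; with arrays left out it was 2.20 to 2.92. miR-155 was 0.55 after normexp, 3.22 with no scaling (adjusted p = 0.0534), 0.97 with the higher floor, 1.05 with it and the slide block, and 3.37 by the methods' test; with arrays left out it was 3.19 to 3.65. All adjusted p are from limma. The arrays did not overlap for 3 miRNAs after normexp, 5 with no scaling and 8 among those detected on all arrays, and for 14 to 49 as each array was left out, with 49 without 2dr replicate 3, 32 without control replicate 1, 21 without 2dr replicate 4 and 20 without 2dr replicate 1. Fewer arrays make such separation easier. A difference between slides passed for 6 miRNAs with no filter.

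Of the 41 named miRNAs, 26 kept direction after normexp, and 24 kept both direction and side of the threshold. As arrays were left out, 38 to 41 kept direction, and 37 kept both without control replicate 2 or control replicate 4. The median of all tested miRNAs was 0.18 after normexp and -0.66 with no scaling. Reversed after normexp were miR-193 (0.049), miR-338-5p (0.20), miR-700 (0.26), miR-532-3p (0.27), miR-760 (0.27), miR-674 (0.29), miR-411* (0.028), miR-381 (0.020), miR-330* (0.026), miR-143 (0.12), miR-486 (0.24), miR-181d (0.0060), miR-337-5p (0.057), miR-330 (0.34) and miR-125b-5p (-0.28). With no scaling these were miR-425 (-0.0089), let-7i (-0.047), miR-29a (-0.18), let-7a (-0.093), miR-223 (-0.37), miR-451 (-0.35) and miR-125b-5p (-0.40). miR-128 was 0.13 with the percentile over all miRNAs and 0.11 in the authors' values, miR-330 0.16 in the latter and 0.00 with the higher floor, with and without the slide block. The mean of the spots gave -0.062 for miR-223 and -0.026 for miR-125b-5p, quantile normalization -0.14 for the latter, and slide as a block -0.076 for miR-451, also with the higher floor. Leaving out arrays took miR-125b-5p from -0.074 to 0.079, miR-223 from -0.18 to 0.23, miR-219 from -0.90 to 0.14 and miR-451 from -0.073 to 0.32. The cause was not tested. With the replicate number as a block, a pairing the labels do not state, the same 2 miRNAs were called and 43 had an unadjusted p under 0.05. Without 2dr replicate 2, an alternative chosen with slide as a block after seeing the data, both calls held (2.17 for miR-146a and 3.31 for miR-155) and 16 had an unadjusted p under 0.05. Signal over background limits dim miRNAs: 51 of the 225 were not detected on every array of the comparison.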
